A study of Mus musculus with 12 samples.

Results

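The genes described here encode 9 components and receptors of the complement system, chosen by name from the 24499 gene symbols of the count table: C1qa, C1qb and C1qc, which encode the chains of C1q, C3, the central component, Cfb and Cfp of the alternative pathway, and the receptor genes C3ar1, C5ar1 and Cr2. They were followed in CD11c+ cells of tumour-draining lymph nodes, in 6 libraries from APOE-KO mice and 6 from wildtype mice, which the protocol calls C57BL6. CD11c, encoded by Itgax, is an integrin carried by dendritic cells and some macrophages. All mice had received E0771-cOC tumour cells (E0771 being a line of mouse mammary carcinoma), and nodes were resected on day 9, digested and enriched on CD11c beads, so every group is tumour-bearing and none is sorted to purity. How the Apoe allele was made, the age of the mice, and whether each library is 1 animal are not stated in the labels. A p-value therefore reflects how much these libraries varied, which may be technical.

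Complement is a cascade of plasma and tissue proteins that tags particles for uptake. C1q, a bundle of collagen-like stalks with globular heads, recognises antibody complexes and dying cells and starts the classical pathway, which cleaves C3. Deposited C3 fragments bind factor B, the product of Cfb, to form the protease that cleaves more C3, and properdin, the product of Cfp, stabilises that protease. The small fragments released from C3 and its relative C5 act on the receptors encoded by C3ar1 and C5ar1, while Cr2 encodes the receptor of B cells and follicular dendritic cells for bound C3 fragments. Most plasma complement comes from the liver, but C1q is made mainly by macrophages and immature dendritic cells, and properdin by myeloid cells and T cells.

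Library totals ran from 3175135 to 4497466 counts in APOE-KO and from 2381477 to 4898360 counts in wildtype, and 3 counts in a library stand for 0.525 to 1.59 CPM, a gene's counts scaled to a common library size. Apoe itself, read as a check of the labels, averaged 5.81 ± 2.95 CPM in APOE-KO and 481 ± 45.7 CPM in wildtype (SD, n = 6 each). The ribosomal RNA gene Rn45s took 11.3% to 21.6% of counts in APOE-KO libraries and 2.71% to 32.2% in wildtype libraries. APOE-KO library 5, wildtype library 1 and wildtype library 3 each lay farthest out on 1 of the first 3 principal components. Dendritic cell markers had the highest sum of the 12 marker lists, 7052 to 8577 CPM in APOE-KO and 6337 to 8202 CPM in wildtype over 10 genes. Most of it came from H2-Ab1 (means of 3041 CPM in APOE-KO and 3071 CPM in wildtype) and Cd74 (2387 and 2403 CPM). Zbtb46, of the same list, averaged 22.5 CPM in APOE-KO and 21.0 CPM in wildtype. The sum does not give the share of dendritic cells.

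Of the 9 genes, 8 had enough reads to be tested, and 4 of these rose in APOE-KO: C3, Cfp, C1qb and Cfb. None fell, also at an unadjusted p under 0.05 and by DESeq2 or limma-voom, which called the same 4 higher. Over all 10714 tested genes 1.08% were called higher in APOE-KO and 0.411% lower (edgeR's quasi-likelihood test, Benjamini-Hochberg adjusted p under 0.05). The median log2 fold change was 0.57 over the 8 genes and -0.02 over all tested genes. The genes were chosen with earlier results of these data known, so these shares and medians describe the list and do not test it. C3ar1 reached the read filter largely through the group where it was higher, with at least 10 reads in 5 APOE-KO libraries and in 2 wildtype libraries. With the mean of the epithelial or of the B cell markers as a covariate, of the 4 genes C3 alone passed, and the others had log2 fold changes of 0.479 to 0.871 with adjusted p of up to 0.691 in edgeR. The summed markers of both lists were lower in every APOE-KO library than in every wildtype library. The epithelial covariate, in mean log2 CPM of the tested markers, was 2.06 ± 1.48 in APOE-KO and 4.27 ± 0.355 in wildtype (SD). The B cell covariate was 5.81 ± 0.185 in APOE-KO and 6.02 ± 0.152 in wildtype. Both were lower on average in APOE-KO, so these fits separate covariate from genotype only in part. A lost pass does not assign a rise to either. In bulk RNA, more cells of a type and more RNA per cell cannot be told apart.

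**Figure D1:**
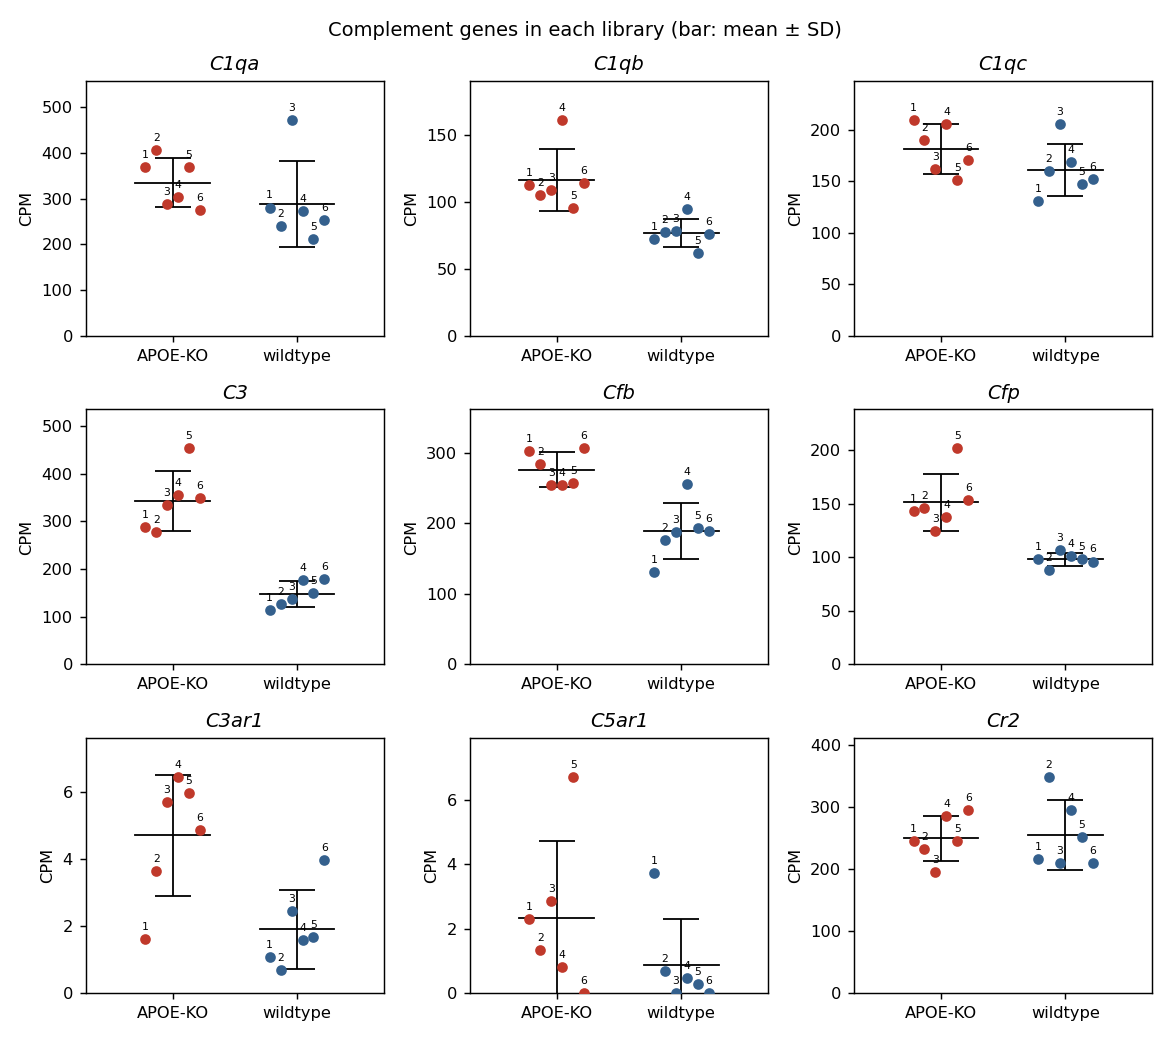
CPM of each of the 9 genes in every library (y axis, starting at 0), with APOE-KO left and wildtype right. Each point is a library with its replicate number, and lines give the mean ± SD of 6. For C3, Cfp and C1qb all APOE-KO points lie above all wildtype points.

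The promoter windows of genes that rose, and of C1qc as a close neighbour that did not pass, show what sequence lies before their starts. They are from RefSeq on GRCm38.p6, run 5′ to 3′ along the gene's strand from 250 bases before to 50 after the start, and windows were matched by symbol for 7 of the 9 genes, not for C1qa or Cfb. Capitals mark matches, on either strand, to the core bound by the myeloid factor PU.1 (GAGGAA, in 28.3% of all 32841 windows) or to the core bound by Maf factors (TGCTGA, in 19.5%). The interferon-stimulated response element (in 3.4% of windows) and the gamma-activated site (TTCNNNGAA, in 8.3%) had no match in any of the 7 windows.
C3, chr17:57228087-57228386, minus strand: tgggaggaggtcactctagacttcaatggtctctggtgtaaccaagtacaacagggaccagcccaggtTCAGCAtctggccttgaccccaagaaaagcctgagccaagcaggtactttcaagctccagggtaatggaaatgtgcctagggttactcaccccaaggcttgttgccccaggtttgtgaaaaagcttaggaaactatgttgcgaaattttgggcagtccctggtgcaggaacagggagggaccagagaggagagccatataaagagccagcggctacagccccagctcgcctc
Cfp, chrX:20931506-20931805, minus strand: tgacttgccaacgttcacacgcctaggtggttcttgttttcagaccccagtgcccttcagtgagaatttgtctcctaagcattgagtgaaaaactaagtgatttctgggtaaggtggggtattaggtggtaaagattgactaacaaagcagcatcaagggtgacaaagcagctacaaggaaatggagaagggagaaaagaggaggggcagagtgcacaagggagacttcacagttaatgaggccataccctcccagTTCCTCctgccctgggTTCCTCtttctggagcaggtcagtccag
C1qb, chr4:136886151-136886450, minus strand: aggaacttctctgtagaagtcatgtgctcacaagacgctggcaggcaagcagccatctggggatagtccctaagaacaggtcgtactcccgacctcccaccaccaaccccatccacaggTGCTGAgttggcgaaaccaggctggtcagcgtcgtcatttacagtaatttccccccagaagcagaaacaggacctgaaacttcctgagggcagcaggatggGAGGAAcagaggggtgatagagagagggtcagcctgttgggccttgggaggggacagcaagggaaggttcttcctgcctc
C1qc, chr4:136892865-136893164, minus strand: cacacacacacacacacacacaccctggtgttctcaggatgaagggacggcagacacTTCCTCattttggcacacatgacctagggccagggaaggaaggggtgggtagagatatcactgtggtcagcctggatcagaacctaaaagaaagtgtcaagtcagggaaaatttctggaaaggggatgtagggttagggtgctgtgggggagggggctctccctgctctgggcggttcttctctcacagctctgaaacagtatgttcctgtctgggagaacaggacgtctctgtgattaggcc
The C3 window held 1 Maf core and no PU.1 core, the Cfp window 2 PU.1 cores just after the start, the C1qb window 1 of each, and the C1qc window 1 PU.1 core. No match overlapped another. The Cr2 window held no match, and those of C3ar1 and C5ar1 held 1 Maf core each. The matches describe letters, not bound sites.

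C3, whose product every activation route converges on, showed the firmest difference. It lies on chromosome 17 from 57203970 to 57228136 (GRCm38, minus strand, protein-coding). Its level was 278 CPM in the lowest, 342 CPM at the median and 453 CPM in the highest APOE-KO library, against 114 CPM, 144 CPM and 178 CPM in wildtype. The groups were far apart, with the lowest APOE-KO library well above the highest wildtype library. The fold was 2.32, a log2 fold change of 1.21 ± 0.15 (SE, adjusted p = 1.41e-05, edgeR). C3 passed in all 12 fits that left out 1 library, with adjusted p from 1.37e-05 to 0.000111, and kept a log2 fold change of 1.02 without the 3 libraries that stand apart (adjusted p = 2.79e-05). APOE-KO library 5 was the highest, at 453 CPM, and wildtype library 1 the lowest.

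Factor B is the alternative pathway's protease, the counterpart of C2 in the classical pathway. Cfb lies beside C2 on chromosome 17, from 34856374 to 34862518, also on the minus strand, and is overlapped on its own strand by the gene model Gm20547, which also overlaps C2, and by a microRNA. It ran from 254 CPM through a median of 271 CPM to 306 CPM in APOE-KO, and from 132 CPM through 189 CPM to 256 CPM in wildtype. The APOE-KO libraries were narrowly spread, and wildtype library 4, the highest of its group at 256 CPM, overlapped the lowest of them. Cfb rose 1.46-fold (log2 fold change 0.54 ± 0.14 SE, adjusted p = 0.0419, edgeR). This call sits close to the threshold: among fits without 1 library it passed only without APOE-KO library 5 or wildtype library 3 or 4, with adjusted p up to 0.122 in the others. Without the 3 libraries that stand apart its adjusted p was 0.066.

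Properdin is the one known positive regulator of the alternative pathway. Its gene Cfp lies on the X chromosome from 20925454 to 20931555 (minus strand), overlapping no other annotated gene. It held 125 CPM in the lowest, 145 CPM at the median and 202 CPM in the highest APOE-KO library, and 88.6 CPM, 98.6 CPM and 107 CPM in wildtype. All APOE-KO libraries lay above all wildtype libraries, whose own spread was narrow (SD 5.98 CPM, against 26.5 CPM in APOE-KO). Cfp rose 1.54-fold (log2 fold change 0.62 ± 0.13 SE, adjusted p = 0.0134, edgeR) and passed without each library in turn, with adjusted p from 0.00916 to 0.0362. Groups did not overlap for C3, Cfp and C1qb, 3 of the 8 tested genes, all higher in APOE-KO. Over all tested genes 1.23% had groups apart in that direction and 1.77% in either.

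**Figure D2:**
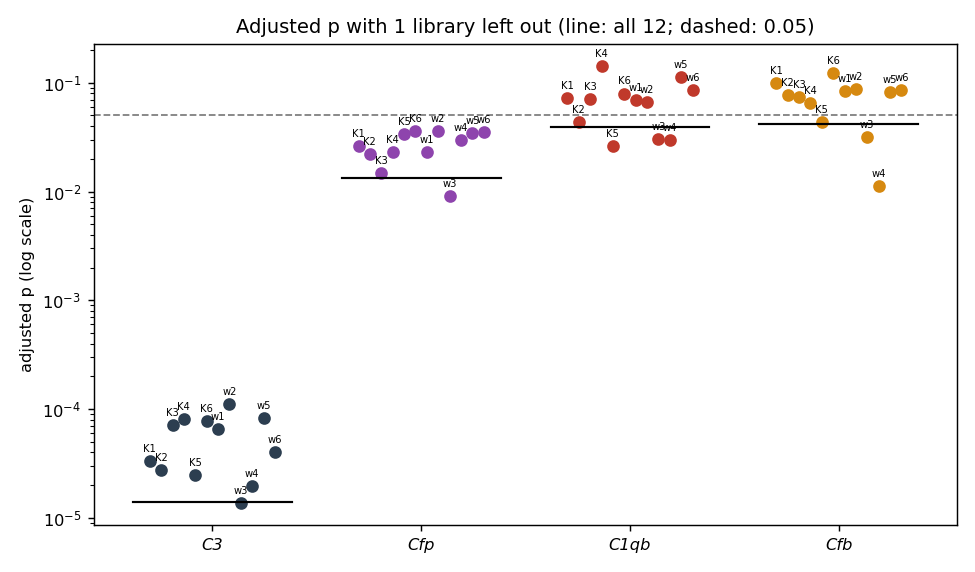
Adjusted p of the 4 genes that rose (y axis, log scale) when 1 library was left out, with each point labelled by that library (K, APOE-KO; w, wildtype). Black lines give the value with all 12 libraries and the dashed line is 0.05. C3 and Cfp stay below it throughout, while C1qb crosses it in 8 of 12 fits and Cfb in 9 of 12.

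The chains of C1q are encoded side by side on chromosome 4, within 18.7 kb from 136880129 to 136898803, all on the minus strand in the order C1qb, C1qc, C1qa, and none overlaps another annotated gene. C1qa was the highest of the 9 genes in the mean over all libraries, and 386 tested genes were higher. Its level was 275 CPM, 335 CPM and 406 CPM in APOE-KO (lowest, median, highest) and 211 CPM, 263 CPM and 472 CPM in wildtype. The groups overlapped, and wildtype library 3, at 472 CPM, was the highest of all 12 libraries. Wildtype library 1, at 280 CPM, also lay above APOE-KO library 6, at 275 CPM. C1qa had a log2 fold change of 0.21 ± 0.16 (SE, adjusted p = 0.66, edgeR), and of 0.42 without wildtype library 3, where the adjusted p was 0.0872.

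C1qb, the lowest of the 3 chains, ran from 95.8 CPM through a median of 111 CPM to 162 CPM in APOE-KO, against 61.8 CPM, 76.9 CPM and 94.9 CPM in wildtype. The groups met but did not overlap, with APOE-KO library 5 at 95.8 CPM just above wildtype library 4 at 94.9 CPM. C1qb rose 1.51-fold (log2 fold change 0.60 ± 0.15 SE, adjusted p = 0.0391, edgeR). Among fits without 1 library it passed without APOE-KO library 2 or 5 or wildtype library 3 or 4, and not in the other 8, where adjusted p reached 0.143 without APOE-KO library 4. C1qc had 151 CPM, 180 CPM and 210 CPM in APOE-KO and 131 CPM, 157 CPM and 206 CPM in wildtype. Its groups overlapped over most of their range, with a log2 fold change of 0.17 ± 0.13 (SE, adjusted p = 0.676, edgeR).

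A pass for C1qb and none for its neighbours does not show that the chains differed, so the make-up of the C1q reads was compared directly. C1qb made up 18.5% ± 3.50 of C1q reads in APOE-KO and 15.0% ± 2.48 in wildtype (n = 6 each, SD), a difference of 3.53 percentage points (two-sided exact permutation p = 0.0736, adjusted p = 0.221 over the 3 chains). C1qa made up 52.8% ± 5.48 in APOE-KO and 54.0% ± 5.02 in wildtype, and C1qc 28.7% ± 2.45 in APOE-KO and 31.0% ± 3.26 in wildtype (exact permutation, adjusted p = 0.695 and 0.292). No chain's share passed in this test, but C1qc did, lower in APOE-KO, as a log2 ratio to the other chains (-0.245, exact permutation, adjusted p = 0.0455) and without wildtype libraries 1 and 3 and APOE-KO library 5 (-3.41 percentage points, adjusted p = 0.0238). The range across single libraries was wider than between genotypes, from 24.1% C1qb in APOE-KO library 4 (95% exact binomial interval 22.4 to 25.8, counting error only) to 10.4% in wildtype library 3 (9.47 to 11.3). The 3 chains summed to 559.5 to 701 CPM in APOE-KO and to 419.5 to 756 CPM in wildtype, where every library but wildtype library 3 lay below all of APOE-KO.

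**Figure D3:**
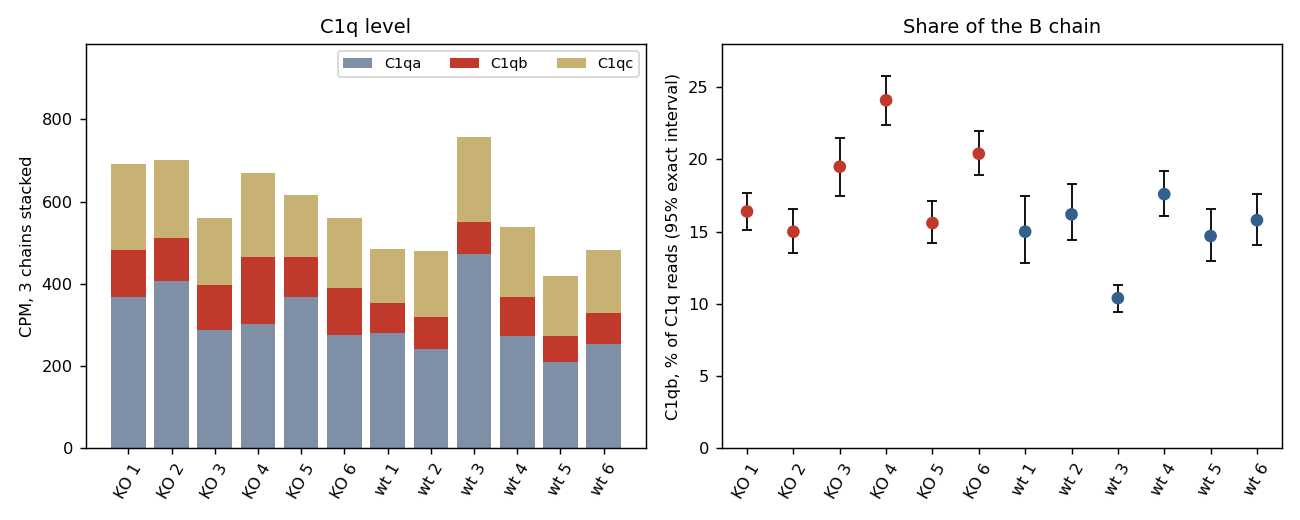
Left, CPM of the 3 C1q chains stacked in each library (KO, APOE-KO; wt, wildtype), and right, C1qb as a percentage of C1q reads with its 95% exact binomial interval. Wildtype library 3 had the highest C1q sum, 756 CPM, and the lowest C1qb share, 10.4%.

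The receptors for the released fragments were read at the edge of detection. C3ar1, the receptor for the fragment of C3, lies on chromosome 6 from 122847138 to 122856161 (minus strand). It held 105 reads over the APOE-KO libraries and 45 over the wildtype libraries, or 1.60 CPM, 5.28 CPM and 6.45 CPM in APOE-KO (lowest, median, highest) and 0.679 CPM, 1.63 CPM and 3.97 CPM in wildtype. The groups overlapped: APOE-KO library 1 lay at the wildtype level, and APOE-KO library 2, at 3.63 CPM, lay below wildtype library 6. Its log2 fold change of 1.25 ± 0.55 had the widest error of the 8 and did not pass (SE, adjusted p = 0.356, edgeR). With the B cell covariate it was 0.674 (adjusted p = 0.847).

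C5ar1 encodes the receptor for the fragment of C5, which draws neutrophils and macrophages. It lies on chromosome 7 from 16246743 to 16259540 (minus strand), 3437 kb from Apoe. It fell short of the read filter, with 52 reads over APOE-KO and 12 over wildtype. Of the 52 reads, 27 came from APOE-KO library 5, and of the 12, 7 came from wildtype library 1. APOE-KO library 6 and wildtype libraries 3 and 6 held none, which allows up to 0.636 CPM, 0.525 CPM and 0.850 CPM in them. The level was 2.33 ± 2.38 CPM in APOE-KO and 0.855 ± 1.43 CPM in wildtype (n = 6 each, SD). By a two-sided exact permutation test p was 0.245, so no difference was detectable at this depth. The log2 ratio of the means, 1.45, rested on single libraries: it was 3.04 without wildtype library 1 (exact permutation p = 0.0519), 0.765 without APOE-KO library 5 (p = 0.472) and 2.04 without these and wildtype library 3 (p = 0.119). Neutrophil markers, 9 genes, summed to 12.6 to 67.2 CPM in APOE-KO and 18.5 to 36.3 CPM in wildtype, with Ly6g, Mmp8, Camp and Ngp averaging under 1 CPM. The highest sum was also in APOE-KO library 5, and its part in the C5ar1 reads there was not tested.

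Cr2 was the only receptor gene read in depth, and it did not differ detectably. It lies on chromosome 1 from 195136811 to 195176716 (minus strand), next to its relative Cr1l. It ran from 194 CPM through a median of 245 CPM to 295 CPM in APOE-KO, and from 209 CPM through 234 CPM to 349 CPM in wildtype. The groups overlapped almost fully, and wildtype library 2 was the highest. The log2 fold change was -0.03 ± 0.15 (SE, adjusted p = 0.968, edgeR), a sign that turned to positive without APOE-KO library 3 or wildtype library 2 or 4. The summed B cell markers, 7 genes, were lower in every APOE-KO library, at 402 to 503 CPM, than in every wildtype library, at 524 to 613 CPM, and 1 of the 6 tested, Fcer2a, fell. Follicular dendritic cell markers, 6 genes, summed to 219 to 337 CPM in APOE-KO and 215 to 310 CPM in wildtype, and 1 of the 3 tested, Cxcl13, rose. The other tested markers did not pass and differed in sign. Enpp2 had a log2 fold change of -0.69 (adjusted p = 0.0868, edgeR) and Mfge8 one of 0.32 (adjusted p = 0.449, edgeR). The part of either cell type in the Cr2 level was not tested beyond the covariate fit given with the other settings.

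**Figure D4:**
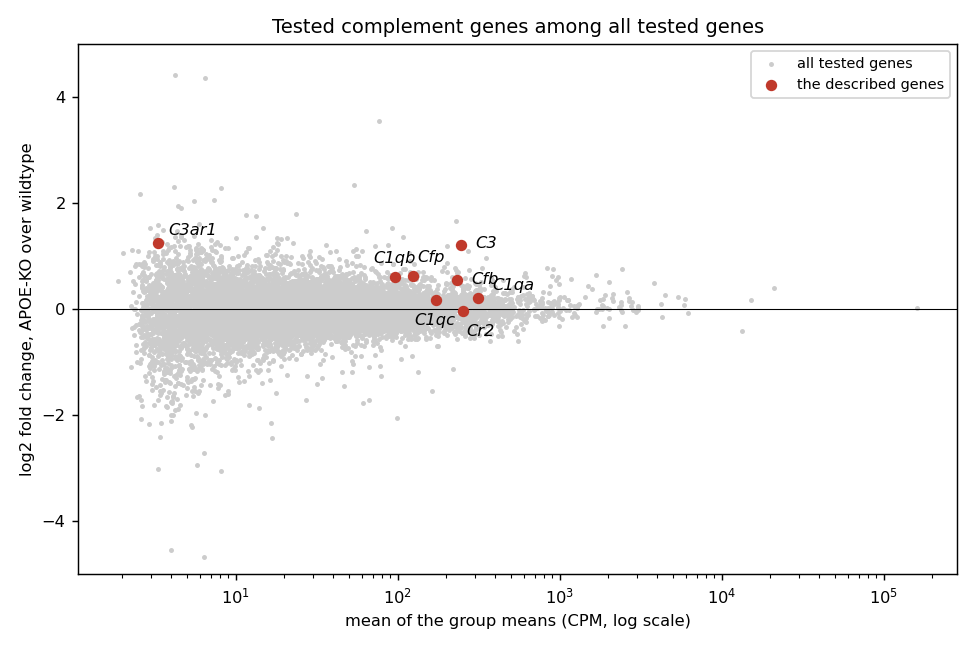
Log2 fold change, APOE-KO over wildtype (y axis), against the mean of the group means in CPM (x axis, log scale) for all 10714 tested genes, with the 8 tested complement genes in red. C3 stands above the cloud at its level of expression, Cfp, C1qb and Cfb lie at its upper edge, and Cr2 sits on the zero line; Apoe lies below the axis limit of -5.

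Reads came from near the 3′ ends of transcripts, so CPM may be set beside each other between genes without a length. By that measure C1qa, Cr2, C3 and Cfb stood among the 608 highest of the 10714 tested genes in the mean over libraries, C1qc, Cfp and C1qb among the 1789 highest, and C3ar1 at place 10429. In wildtype the order was C1qa, Cr2, Cfb, C1qc, C3, Cfp and C1qb, and in APOE-KO C3, C1qa, Cfb, Cr2, C1qc, Cfp and C1qb. C3 thus stood highest in APOE-KO, at 343 ± 62.7 CPM, within the spread of C1qa at 335 ± 53.1 CPM, and between C1qc and Cfp in wildtype, at 148 ± 26.5 CPM, within the spread of C1qc at 161 ± 25.5 CPM (SD, n = 6 each).

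Beyond the genotypes, the 8 genes did not vary as a block between libraries. After each genotype's mean was taken away, Pearson's r over the 12 libraries was 0.55 between C1qa and C1qc and 0.54 between C1qb and C1qc, but 0.01 between C1qa and C1qb. The highest r of any pair was 0.67, between C3 and C3ar1, whose reads are few. C3 and Cfp had an r of 0.49, C3 and Cfb 0.41, and Cfb and Cfp 0.06. These are descriptions over 12 libraries that share scaling factors. Among 9259 candidate genes averaging at least 5 CPM, the gene most like C3 was Oxct1, a ketone body enzyme (r = 0.91, rho = 0.88), followed by Clec7a, the beta-glucan receptor dectin-1 (r = 0.88), and Shfm1 (r = 0.86). The gene most like Cr2 was Cd200, a membrane protein that restrains myeloid cells (r = 0.90, rho = 0.95), then Glul and Ccnc. C1qb varied most like Gda, guanine deaminase, which itself passed in APOE-KO (r = 0.89, log2 fold change 0.61, adjusted p = 0.0281, edgeR), then Mocs2 and Birc3. For C1qa the leading genes were Ampd2, Arpc1a and Plekho1, for C1qc Akap11, Hspa14 and Ap1ar, for Cfb Ms4a4b, Rap1gap2 and Lilrb4a, and for Cfp Abcc1, Mpst and Fcmr, at r from 0.889 to 0.945. Without the 2 libraries farthest from the median of the complement gene, r ran from 0.56 for Cfb and Lilrb4a to 0.89 for C3 and Shfm1. As the highest of 9259 candidates over only 12 libraries, the r of these named genes are high partly by selection. They were not tested, and do not by themselves link the genes.

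Other genes of the system were counted over a list of 47, of which 14 had no read in any library and 15 could be tested. Of the 15, Clu and Cd93 rose and none fell by edgeR or limma-voom, while DESeq2 called Fcna lower. At an unadjusted p under 0.05 in edgeR 3 of the 15 were higher and 2 lower, where 12.1% of all tested genes had such a p in either direction. The median log2 fold change of the 15 was -0.11. Clu encodes clusterin, a secreted lipid-binding chaperone that also blocks the terminal complex, and averaged 179 ± 19.2 CPM in APOE-KO and 119 ± 21.9 CPM in wildtype (SD, n = 6 each; 1.51-fold, adjusted p = 0.0228, edgeR). Cd93, a membrane lectin once described as a C1q receptor, averaged 44.7 ± 8.65 CPM in APOE-KO and 23.4 ± 6.54 CPM in wildtype (1.93-fold, adjusted p = 0.0182, edgeR), and its groups did not overlap. Clu did not pass without APOE-KO library 3, 4 or 6 or wildtype library 4, 5 or 6 (adjusted p up to 0.0757), nor Cd93 without wildtype library 6 (0.0556). Neither passed with the epithelial covariate (adjusted p = 0.362 for Clu and 0.632 for Cd93, edgeR) or the B cell covariate (0.348 and 0.147).

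Partners of the 9 genes in the cascade did not pass. C2 and C4b, which form the classical protease that cleaves C3, averaged 6.39 ± 2.73 and 6.22 ± 2.17 CPM in APOE-KO and 7.36 ± 2.56 and 10.3 ± 4.26 CPM in wildtype (SD, n = 6 each; adjusted p = 0.905 and 0.46, edgeR). The log2 fold change of C2 was -0.21, and -0.49 without the 3 libraries that stand apart, and C4b has a near-identical copy, C4a, that can share its reads. Calr, calreticulin, which binds C1q, Cr1l, which limits C3 cleavage on mouse cells, and Itgax, whose product is also a receptor for C3 fragments, had log2 fold changes of -0.11, -0.15 and 0.10 (adjusted p = 0.843, 0.819 and 0.841, edgeR). The sign for Calr turned without wildtype library 1. Itgax encodes the CD11c on which the cells were enriched, so that selection may shape its level. Fcna, a ficolin that starts the lectin pathway, was chosen after its values were seen. It held 1.04 ± 0.835 CPM in APOE-KO and 5.75 ± 2.55 CPM in wildtype, with groups that did not overlap and an adjusted p of 0.0562 in edgeR.

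Below the read filter, C6 of the terminal pathway stood out. It held 0 reads over the 6 APOE-KO libraries and 76 over the 6 wildtype libraries, 5 to 21 in each, at least 26.0-fold lower in APOE-KO when 3 counts over the group are taken as the floor (two-sided exact permutation p = 0.00216, the smallest that 924 assignments allow). With no read filter its adjusted p over 16926 genes was 0.00134 in edgeR. Hc, which encodes C5, and Cfd, factor D, which cleaves bound factor B, averaged 1.01 ± 1.07 and 1.13 ± 1.03 CPM in APOE-KO and 1.14 ± 0.880 and 1.49 ± 1.80 CPM in wildtype (SD, n = 6 each).

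**Figure D5:**
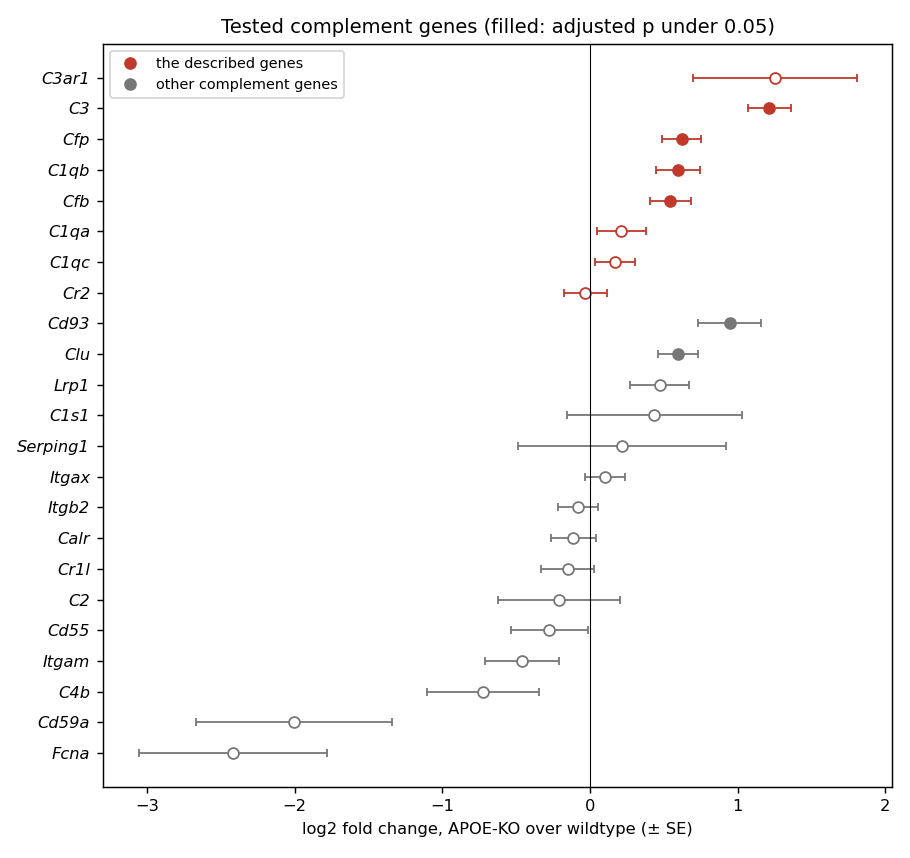
Log2 fold change, APOE-KO over wildtype, with its SE (x axis) for the 8 tested genes described here (red) and the 15 other tested complement genes (grey). Filled points passed an adjusted p of 0.05, 4 red ones (C3, Cfp, C1qb, Cfb) and 2 grey ones (Cd93, Clu), all to the right of 0.

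Markers of the cell types that such a preparation can hold moved in different ways beside these genes. Of the 10 dendritic cell markers Ccr7 and Sirpa rose and none fell. Of the 8 plasmacytoid dendritic cell markers Siglech, Runx2, Klk1 and Cox6a2 fell and none rose, and they summed to 1100.0 to 1438 CPM in APOE-KO and 1363 to 3065 CPM in wildtype, with wildtype library 1 the highest. Of the 12 macrophage markers, 10 were tested. Cd5l rose, while Marco, Timd4 and Mrc1 fell, and their sum was 509.6 to 720.0 CPM in APOE-KO and 665 to 829.9 CPM in wildtype. Vsig4, the C3 fragment receptor of some resident macrophages, had no read in any library. Monocyte markers, 8 genes, summed to 1434 to 1583 CPM in APOE-KO and 1149 to 1534 CPM in wildtype, with Lyz2 higher in APOE-KO among 6 tested. Epithelium is known to make C3 and factor B, and the 12 epithelial markers summed to 75.5 to 176 CPM in APOE-KO and 195 to 239 CPM in wildtype. Every APOE-KO library thus lay below every wildtype library. Trf was the largest part of that sum, averaging 80.6 CPM in APOE-KO and 125 CPM in wildtype. Of the 6 tested epithelial markers it alone passed, lower in APOE-KO. Epcam, Krt8, Krt18, Krt19 and Wfdc2 were also lower, by more but on fewer reads. Their log2 fold changes ran from -1.03 (Epcam) to -2.15 (Wfdc2), with adjusted p of 0.152 to 0.453 (edgeR). Fibroblastic stroma, another source of C3, held 29.9 to 49.7 CPM over 9 markers in APOE-KO and 21.5 to 51.8 CPM in wildtype. Lum averaged under 1 CPM, and Ccl19 and Ccl21a had no read in any library. The part of these cell types in the 4 rises was not tested, apart from the fits with macrophage, B cell and epithelial covariates.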

How the data were processed

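Lymph node cells enriched on CD11c beads were sequenced from the 3′ end in 12 libraries with a Lexogen kit. The authors deposited 1 table of raw read counts, whole numbers for each gene symbol and library. Per the submitters' processing notes reads were processed on build mm10 with STAR (2.7.8a) and featureCounts (1.5.1), and R (4.1.0) and DESeq2 (1.4) are also named. The annotation, the strand setting, the treatment of reads with several matches and any molecular identifiers are not stated, so intervals and floors cover counting error only. Each column name equals 1 sample's description label, and 0 columns went unused.

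The tools here were edgeR 4.0.16, limma 3.58.1 and DESeq2 1.42.0 under R 4.3.3. Genes were kept by filterByExpr (minimum count 10, total 15), which left 10714 of 24499. Libraries were scaled by TMM, CPM used the scaled sizes, and genotype was tested with glmQLFit and glmQLFTest, Benjamini-Hochberg adjusted over the tested genes, threshold 0.05. The SE was taken as |log2 fold change| over the root of F, and the common biological coefficient of variation was 30.1%. Single values used exact permutation over 924 assignments. No 2 libraries of the same genotype agreed within sampling noise. Alternatives were RLE and upper quartile scaling, DESeq2, limma-voom, other filters, robust dispersion, marker covariates, a replicate block and leaving out each library. Scripts were tested on simulated counts. Positions come from GENCODE vM21 (GRCm38).

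Named are the 9 genes, other complement genes that passed or were the 2 highest of their role, and the 3 genes most like each. The members and lists were chosen with earlier results of these data known. A gene that the naming rule covers is not reported here.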

Additional observations from a re-analysis of the deposited data

Results flagged for a closer look

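In 18 groups of 6 libraries (9 genes, 2 genotypes), 4 held a library far from the rest, by a gap test with a critical value of 0.625 that chance passes in about 1 of 20 groups. C1qa was 472 CPM in wildtype library 3, against 280 CPM in the next highest wildtype library. C1qb was 162 CPM in APOE-KO library 4, with 114 CPM next. Cfp was 202 CPM in APOE-KO library 5, with 154 CPM next, just past the critical value. C5ar1 was 3.72 CPM in wildtype library 1, with 0.679 CPM next, on 7 reads. Wildtype libraries 1 and 3 and APOE-KO library 5 also lay farthest out on a principal component, and APOE-KO library 4 did not.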

How the results depend on the processing

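C3 passed under every setting run, with log2 fold changes of 1.02 to 1.29. Size factors, filters, DESeq2, limma-voom and robust dispersion ended none of the 4 calls. The same-numbered libraries showed no pairing (r between -0.077 and 0.0185, 0 of 6 closest to its own number), and with the replicate block 1 gene passed, C3, with log2 fold changes of 0.59 for C1qb, 0.566 for Cfb and 0.607 for Cfp; Clu and Cd93 also missed with the block (adjusted p = 0.0773 and 0.0551). With the epithelial covariate (2.06 ± 1.48 in APOE-KO and 4.27 ± 0.355 in wildtype, mean log2 CPM, SD), 1 passed, with 0.871 for C1qb, 0.506 for Cfb and 0.479 for Cfp; with the B cell covariate, 1 passed, with 0.526, 0.585 and 0.588. The SE of C1qb was 0.149 with no covariate, 0.2 with the epithelial and 0.182 with the B cell one. The macrophage covariate left Cfb at 0.531 (adjusted p = 0.0814). Without the 3 libraries that stand apart, chosen after seeing the data, 3 passed, Cfb at 0.46. Leaving out 1 library gave 2 to 4 rises, with log2 fold changes of 0.482 to 0.676 for C1qb, 0.462 to 0.66 for Cfb and 0.523 to 0.672 for Cfp. For Cr2, -0.0314 became 0.0681 with the B cell covariate and 0.0884 with the macrophage covariate, and -0.0843 to 0.0798 without 1 library. C2 turned to 0.219 and 0.151 (epithelial, B cell), Cr1l to 0.0611 (epithelial) and Calr to 0.0539 (B cell) and -0.195 to 0.0307 without 1 library. The C1qa share difference of -1.21 points was -2.63 to 0.464 without 1 library and 0.433 without the 3, and that of C1qc passed as a log2 ratio to the other chains (-0.245, adjusted p = 0.0455) and without the 3 (-3.41, adjusted p = 0.0238), while all 3 chains missed under the replicate block. Over all tested genes, 116 higher and 44 lower became 182 and 90 by DESeq2, 70 higher with the block, 27 and 11 (epithelial), 25 and 15 (B cell), 68 lower with no filter, and 72 to 166 higher and 27 to 64 lower without 1 library. The causes were not tested. Depth limits C3ar1 and C5ar1, whose reads are few.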
